A study of Mus musculus with 2 samples.

Results

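The MHC class I pathway shows pieces of a cell's own proteins at its surface. The transcripts described are those of 10 genes: the heavy chains H2-K1, H2-D1, H2-Q6, H2-Q7, H2-Q10 and H2-T23, the shared light chain B2m, the peptide transporter subunits Tap1 and Tap2, and tapasin (Tapbp). They were selected by gene symbol from tables that cover 13326 symbols, and all 10 were found, each in a single row. All 10 passed the minimum of 1 FPKM in at least 1 library, as did 11985 genes in all. FPKM scales the fragments of a gene to its transcript length and to the total of its library, so levels can be compared between genes.

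Liver RNA came from 12-week-old male C57BL/6J mice that had been fasted overnight. The knockout group had the genotype Adipoq-/- and so lacked adiponectin, a hormone secreted by fat cells, and the wild-type group carried an intact Adipoq gene. RNA of 9 to 10 mice was pooled per group and sequenced as 1 library, so neither the spread between animals nor any p-value can be given, and no difference below has a replicate check. The genotypes are taken from the labels alone, since the deleted gene was not analysed here. Both libraries carried the hepatocyte marker albumin (Alb) at high level, with 14031 FPKM in the knockout library and 17522 FPKM in the wild-type library.

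Class I heavy chains assemble in the endoplasmic reticulum with beta-2-microglobulin. The TAP1-TAP2 transporter carries peptides cut by the proteasome into that compartment, and tapasin holds empty class I molecules beside the transporter until a peptide is bound. H2-K1 and H2-D1 are the classical heavy chains that present peptides to CD8 T cells. H2-Q10 is a heavy chain without a membrane anchor that mouse hepatocytes secrete, and H2-T23 encodes Qa-1, which binds leader peptides of other class I molecules and is read by the NKG2 receptors of natural killer cells. Hepatocytes display little surface class I compared with immune cells, and interferons raise class I transcription in most cell types.

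The upstream regions are shown because the heavy chain genes share one ancestral promoter. H2-Q10, the most abundant of the heavy chains in liver, departs from it, as does H2-T23. Class I promoters are known for a kappa B site, an interferon response site, and an X2 and Y box module that is bound by a complex with the transactivator NLRC5. RefSeq promoters on GRCm38.p6 were found for 9 of the 10 genes. Printed are the 250 bases before the first listed gene start, 5′ to 3′ on the gene's strand, with matches to the motifs searched in capitals.
H2-K1, chr17:34000348-34000597, minus strand: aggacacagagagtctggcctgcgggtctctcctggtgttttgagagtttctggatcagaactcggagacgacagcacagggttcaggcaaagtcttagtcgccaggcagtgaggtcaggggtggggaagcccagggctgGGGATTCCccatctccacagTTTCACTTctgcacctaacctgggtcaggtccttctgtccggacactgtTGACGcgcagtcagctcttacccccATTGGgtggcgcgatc
H2-D1, chr17:35262844-35263093, plus strand: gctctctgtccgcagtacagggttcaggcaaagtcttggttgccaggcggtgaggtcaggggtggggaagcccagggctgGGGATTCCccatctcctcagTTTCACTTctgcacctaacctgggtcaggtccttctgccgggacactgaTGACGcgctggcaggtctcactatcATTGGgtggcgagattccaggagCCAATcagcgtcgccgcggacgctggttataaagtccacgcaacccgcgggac
H2-Q10, chr17:35469839-35470088, plus strand: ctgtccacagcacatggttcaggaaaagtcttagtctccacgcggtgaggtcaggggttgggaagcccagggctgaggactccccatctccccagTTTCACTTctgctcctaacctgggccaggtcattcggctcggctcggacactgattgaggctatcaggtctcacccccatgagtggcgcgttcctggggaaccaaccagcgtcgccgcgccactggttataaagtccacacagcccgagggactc
B2m, chr2:122147437-122147686, plus strand: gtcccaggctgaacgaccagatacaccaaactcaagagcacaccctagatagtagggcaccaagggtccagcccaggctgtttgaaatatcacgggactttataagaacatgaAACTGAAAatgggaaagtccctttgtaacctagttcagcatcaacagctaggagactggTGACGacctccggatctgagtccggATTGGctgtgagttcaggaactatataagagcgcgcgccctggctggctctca

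The motifs searched on both strands were GGNATTCC (kappa B), TTTCNNTT (interferon response type), TGACG (X2 type) and CCAAT (Y box), and no match in these genes overlapped another. The kappa B letters are only the core of the longer site. The motifs were chosen with these promoters in view, and the heavy chain promoters are paralogous copies, so the matches are not independent of each other. The kappa B letters stood upstream of H2-K1, H2-D1, H2-Q6 and H2-Q7, 4 of the 9 genes, against 2.33% of all 27025 promoter windows of the same length. The interferon response letters stood upstream of 7 of the 9 genes and 21.6% of all windows, the X2 letters upstream of 5 genes and 17.9% of windows, and the Y box letters upstream of 8 genes and 34.5% of windows. All motifs together were found in 9 of the 27025 windows, and 3 of these 9 were those of H2-K1, H2-D1 and H2-Q7.

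The H2-Q10 window held the interferon response letters, starting at position -155 from the gene start, and none of the others. Over the 241 bases that aligned with H2-D1, 85.9% were identical, so the departures lie within an otherwise related sequence. H2-T23 was more distant, with 61.7% identity to H2-D1 over 209 aligned bases. Its window also lacked the kappa B and X2 letters, and that of H2-Q6 lacked the X2 letters. The kappa B letters began at position -110 in H2-K1 and -170 in H2-D1, so the 2 windows do not cover the same stretch of the shared sequence. A missing match says only that these letters are not in this window.

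**Figure D1:**
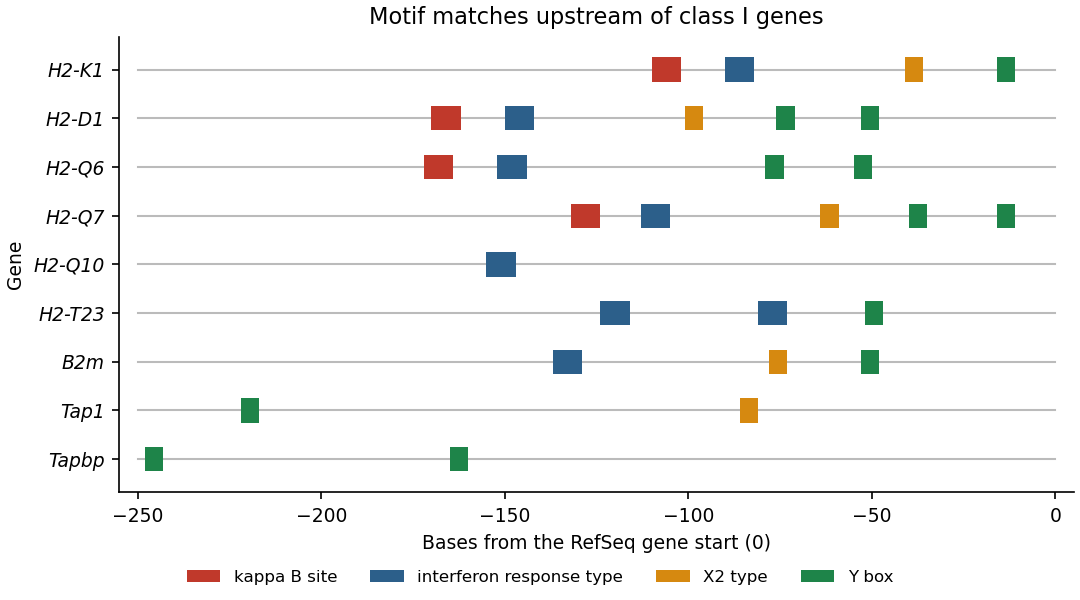
Motif matches in the 250 bases upstream of 9 class I pathway genes. The horizontal axis is the distance in bases from the RefSeq gene start, each grey line is a gene and each coloured block a match to a named motif on either strand. The kappa B block is present in H2-K1, H2-D1, H2-Q6 and H2-Q7, and the H2-Q10 line carries only the interferon response type block.

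B2m was the most abundant transcript of the pathway and H2-Q10 the most abundant heavy chain, and B2m exceeded Tap1 199 times in the knockout library and 183 times in the wild-type library. The transporter and tapasin transcripts stood far below the chains they load. The differences between the libraries were small. Of the 10 genes, 0 were at least 1.5-fold higher and 0 at least 1.5-fold lower in the knockout library relative to the median of all genes, where 6.73% of all genes tested were at least 1.5-fold higher and 2.61% at least 1.5-fold lower.

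H2-K1, the K-end classical heavy chain, had 238 FPKM in the knockout library and 311 FPKM in the wild-type library. H2-D1, the D-end classical heavy chain, had 105 FPKM in the knockout library and 121 FPKM in the wild-type library. Both classical chains were thus lower in the knockout library as deposited, at 0.765 times the wild-type level for H2-K1 and 0.871 times for H2-D1. H2-K1 showed the larger step, and its level relative to H2-D1 was 2.26 in the knockout library and 2.57 in the wild-type library.

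Secreted H2-Q10 reached 672 FPKM in the knockout library and 806 FPKM in the wild-type library. By mean FPKM it ranked 136 among the 11985 genes tested, and it exceeded H2-K1 2.83 times in the knockout library and 2.59 times in the wild-type library. H2-Q10 made up 59.4% of the summed FPKM of the 6 heavy chains in the knockout library and 59.1% in the wild-type library. H2-K1 made up 20.99% in the knockout library and 22.8% in the wild-type library, and H2-D1 made up 9.28% in the knockout library and 8.84% in the wild-type library. The liver's heavy chain pool at the transcript level was therefore mostly secreted chain in both libraries, with little difference in its make-up.

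H2-T23, the Qa-1 gene, had 55.6 FPKM in the knockout library and 61.8 FPKM in the wild-type library. H2-Q6 and H2-Q7 belong to the Q region, whose H2-Q7 product is the lipid-anchored Qa-2 antigen. H2-Q6 had 36.8 FPKM in the knockout library and 36.6 FPKM in the wild-type library, and H2-Q7 had 24.9 FPKM in the knockout library and 29.0 FPKM in the wild-type library. H2-Q6, H2-Q7 and their neighbour H2-Q8 are near-identical copies, so the division of reads among them is uncertain. Their summed level was 82.8 FPKM in the knockout library and 90.7 FPKM in the wild-type library, which places the 3 together at a relative log2 ratio of 0.02, whereas H2-Q6 on its own stood at 0.16.

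B2m, the light chain shared by the heavy chains, had 1417 FPKM in the knockout library and 1640 FPKM in the wild-type library, and ranked 81 by mean FPKM. Summed over the 6 heavy chains the level was 1132 FPKM in the knockout library and 1364 FPKM in the wild-type library. B2m transcripts therefore stood at 1.25 times the summed heavy chain level in the knockout library and 1.20 times in the wild-type library. These are transcript levels per length and say nothing of the protein ratio.

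Tap1, the first transporter subunit, had 7.13 FPKM in the knockout library and 8.96 FPKM in the wild-type library. Tap2, its partner, had 7.26 FPKM in the knockout library and 6.62 FPKM in the wild-type library. Tap1 and Tap2 were the pair of partners that went apart, with a Tap1 to Tap2 ratio of 0.981 in the knockout library and 1.35 in the wild-type library. Tapbp had 8.79 FPKM in the knockout library and 9.65 FPKM in the wild-type library. The order of the 7 chain genes by level was the same in both libraries, while Tap1 and Tap2 changed places. At these low levels, and with the depth unknown, it cannot be said whether the 3 loading genes differed from each other beyond error.

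**Figure D2:**
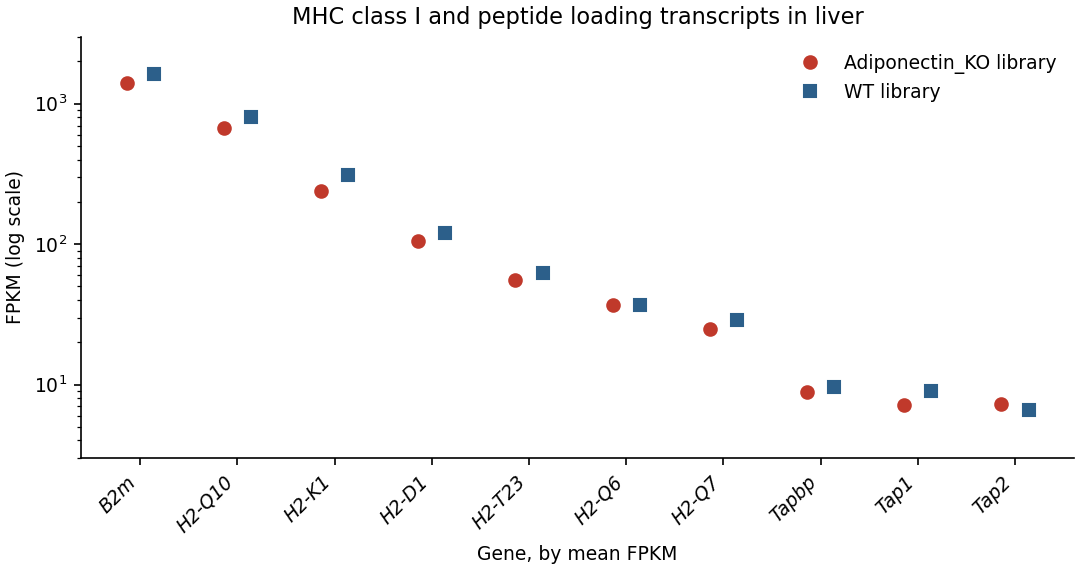
FPKM of the 10 genes on a log axis, ordered by mean level, with the knockout library as circles left of the wild-type library as squares. Each point is 1 pooled library with no error bar. B2m and H2-Q10 stand highest, and the knockout point lies below the wild-type point for all genes except Tap2 and H2-Q6.

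Ratios were taken as log2((knockout FPKM + 1) / (wild-type FPKM + 1)), which understates differences of low genes. Over all genes tested the median of this ratio was -0.15, and relative ratios are those after this median was subtracted. As deposited, 8 of the 10 genes were lower and 2 higher in the knockout library, where 66.9% of all genes tested were lower and 33.1% higher. Relative to the all-gene median, 6 of the 10 lay below and 4 above. The median relative ratio of the 10 genes was -0.05, beside 0 for all genes by construction, and it was -0.20 as deposited, beside the all-gene -0.15.

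Among the 10 genes the relative log2 ratios spanned -0.23 for H2-K1 to 0.27 for Tap2. H2-K1 lay at percentile 19.1 of all genes tested and Tap2 at percentile 76.7, and the other 8 lay between percentiles 25 and 75. H2-Q10 stood at -0.11, B2m at -0.06, H2-D1 at -0.05 and H2-T23 at 0.00. Tap1 stood at -0.14, H2-Q7 at -0.06, Tapbp at 0.03 and H2-Q6 at 0.16. The chains, the transporter and tapasin thus held genes on either side of the all-gene median, whereas all 10 were lower in the knockout library when both libraries were rescaled to equal summed FPKM.

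The log2 ratio ran with transcript length across genes, with a Spearman rho of -0.418 over 11582 genes, which are not independent replicates. The longest annotated transcripts of the 10 genes ran from 860 bases for B2m to 4328 bases for H2-Q10. After a smooth curve on length was subtracted, B2m stood at -0.32, against -0.06 before, and became the lowest of the 10. The other 9 moved by no more than 0.1, with H2-K1 at -0.26 and Tap2 at 0.34, and the median of the 10 was 0.01. The longest annotated transcript need not be the one behind the FPKM. H2-Q7 was given 4209 bases and its near-identical copy H2-Q6 2085 bases. H2-Q7 moved from -0.06 to 0.03 and H2-Q10 from -0.11 to -0.01, so the corrected median depends on these lengths.

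**Figure D3:**
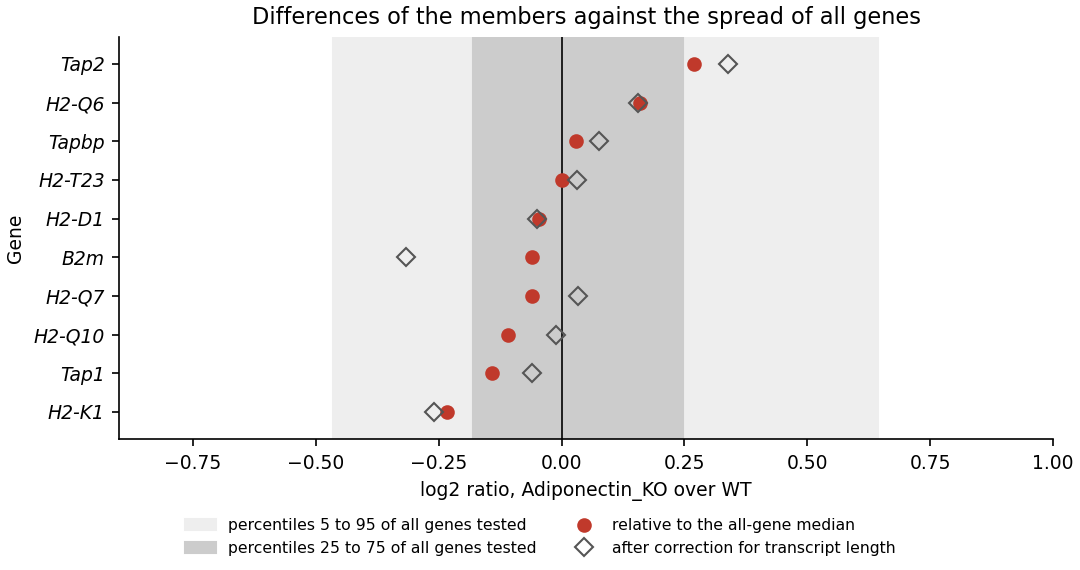
Log2 ratio of knockout over wild type for the 10 genes, relative to the all-gene median (filled circles) and after correction for transcript length (open diamonds). The dark band runs from percentile 25 to 75 and the light band from percentile 5 to 95 of all 11985 genes tested. All 10 circles lie inside the light band and 8 inside the dark band. B2m has the longest distance between its 2 symbols.

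The 9 other class I heavy chain genes of the complex, picked by the start of their symbols, were lower in level than the classical chains. In at least 1 library 7 of them reached 1 FPKM. Of these 7, 5 lay above the all-gene median and 2 below, none by 1.5-fold, with a median relative ratio of 0.24, and as deposited 4 were higher and 3 lower. H2-T22, a ligand of some gamma delta T cells, had 33.5 FPKM in the knockout library and 28.6 FPKM in the wild-type library (relative log2 ratio 0.37). H2-M3, which presents formylated peptides, had 2.28 FPKM in the knockout library and 1.81 FPKM in the wild-type library (0.38). H2-K2 stood at 0.33 and H2-T10 at 0.24. Assignment of reads among these copies is uncertain too. The symbols H2-Ke2 and H2-Ke6 begin alike but are not class I genes and were left out. Class I-like gene models under other symbols were missed by this rule, so the median of 0.24 holds for the listed genes only. Among those missed were H2-Gs10 at -0.15, Gm8909 at -0.22, Gm11127 at 0.37 and Gm10499 at 0.06.

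The partners that cut peptides and fold the chains were at or above the level of the transporter genes in most cases, and their differences were also small. Of 18 genes for the proteasome, its activator, peptide trimming and loading chaperones, 12 lay above the all-gene median and 6 below, with a median of 0.10 and 0 past 1.5-fold in either direction, while as deposited 7 were higher and 11 lower. The largest ratios belonged to the activator subunit Psme2, with 89.7 FPKM in the knockout library and 68.5 FPKM in the wild-type library (0.53), and to the constitutive catalytic subunit Psmb6, with 223 FPKM in the knockout library and 171 FPKM in the wild-type library (0.53). The immunoproteasome subunit Psmb9 had 48.7 FPKM in the knockout library and 37.3 FPKM in the wild-type library (0.52), and its fellow subunit Psmb10 stood at 0.43. After correction for transcript length, Psme2 and Psmb6 stood at 0.31, Psmb10 at 0.30 and Psmb9 at 0.57. The median of the 18 genes was then 0.14. In the immunoproteasome 3 interferon-inducible subunits replace constitutive ones, and these pairs were set side by side after their values were seen. The Psmb9 to Psmb6 ratio was 0.218 in the knockout library and 0.219 in the wild-type library, and the Psmb8 to Psmb5 ratio was 0.169 in the knockout library and 0.164 in the wild-type library. The Psmb10 to Psmb7 ratio was 0.147 in the knockout library and 0.123 in the wild-type library, the pair that lay farthest apart between the libraries. The ratios of these pairs carry no length correction.

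The loading chaperones of at least 50 FPKM lay near the all-gene median, apart from calnexin. Calreticulin (Calr) had 368 FPKM in the knockout library and 370 FPKM in the wild-type library, the thiol oxidoreductase ERp57 (Pdia3) 188 FPKM in the knockout library and 199 FPKM in the wild-type library, and BiP (Hspa5) 327 FPKM in the knockout library and 375 FPKM in the wild-type library. Calnexin (Canx), which holds newly made heavy chains, was the lowest of the list, with 74.6 FPKM in the knockout library and 101 FPKM in the wild-type library (-0.28). Psmb5 stood at 0.38, Psmb7 at 0.18 and Psme1 at 0.00. With length correction they stood at 0.14, 0.23 and -0.01.

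Of 20 regulators of class I transcription, 5 lay above and 15 below the all-gene median, with a median of -0.12. As deposited 19 were lower, where 66.9% of all genes tested were lower. By at least 1.5-fold 1 gene was lower, beside 2.61% of all genes tested. It was Nfya, a subunit of the factor that binds the Y box, with 1.57 FPKM in the knockout library and 3.55 FPKM in the wild-type library (-0.67). Irf1, an activator of class I, Tap1 and Psmb9 genes, had 9.16 FPKM in the knockout library and 13.4 FPKM in the wild-type library (-0.35). Rfx5, which binds the X box, stood at -0.30, and Jak1, a kinase of interferon receptors, at -0.27. Ifnar2, a type I interferon receptor subunit, stood at -0.05 with 91.5 FPKM in the knockout library and 105 FPKM in the wild-type library. The class I transactivator Nlrc5, named after its values were seen, had 0.797 FPKM in the knockout library and 1.37 FPKM in the wild-type library (-0.25). After length correction the median of the 20 regulators was -0.08, and 7 of them lay above 0. Rfx5 then stood at -0.20, Jak1 at -0.16 and Nlrc5 at -0.14, while Nfya stood at -0.60 and Irf1 at -0.35.

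The class II genes tested, which serve to present material taken up from outside the cell, were higher in the knockout library. Of 10 listed, 6 were tested, and all 6 exceeded the all-gene median, with a median of 0.78. H2-Ob, with 0.292 FPKM in the knockout library and 0.625 FPKM in the wild-type library, stayed under 1 FPKM. So did H2-DMb2, with 0.707 FPKM in the knockout library and 0.662 FPKM in the wild-type library. The remaining 2 were not analysed here. By at least 1.5-fold 5 of them were higher, beside 6.73% of all genes tested. As deposited, all 6 were higher, 3 of them by at least 1.5-fold. After length correction the median of the 6 was 0.71, and Cd74 stood at 0.49, under 1.5-fold. The chain genes H2-Eb1, H2-Ab1 and H2-Aa stood at 1.003, 0.97 and 0.93, and H2-DMa at 0.63. The invariant chain Cd74 had 55.6 FPKM in the knockout library and 40.5 FPKM in the wild-type library (0.60). H2-Aa had 41.0 FPKM in the knockout library and 23.5 FPKM in the wild-type library, so that H2-K1 exceeded it 5.79 times in the knockout library and 13.2 times in the wild-type library. Whether class I and class II differed in their response could not be tested with 1 library per genotype.

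Of 26 interferon response genes listed, 22 were tested, with 17 above and 5 below the all-gene median and a median of 0.26. Mx2 stayed under 1 FPKM, with 0.476 FPKM in the knockout library and 0.845 FPKM in the wild-type library, and 3 were not analysed here. By at least 1.5-fold, 2 were higher and 0 lower, beside 6.73% and 2.61% of all genes tested. As deposited, 13 were higher and 9 lower, and 1 was at least 1.5-fold higher. This list shares Psmb8 and Psmb9 with the peptide supply genes. The ubiquitin-like modifier Isg15 had 15.9 FPKM in the knockout library and 10.0 FPKM in the wild-type library (0.77), and the GTPase Ifi47 had 18.8 FPKM in the knockout library and 12.4 FPKM in the wild-type library (0.72). Psmb9 followed at 0.52, and Oas1a, which makes an activator of RNase L, had 1.31 FPKM in the knockout library and 0.898 FPKM in the wild-type library (0.43). Among abundant genes of the list, named after their values were seen, the tetherin gene Bst2 had 169 FPKM in the knockout library and 144 FPKM in the wild-type library (0.38), and the GTPase Iigp1 72.3 FPKM in the knockout library and 81.0 FPKM in the wild-type library (-0.01). After length correction Isg15 stood at 0.49, under 1.5-fold, Ifi47 at 0.68, Bst2 at 0.11 and Iigp1 at 0.05. The median of the 22 was then 0.21.

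**Figure D4:**
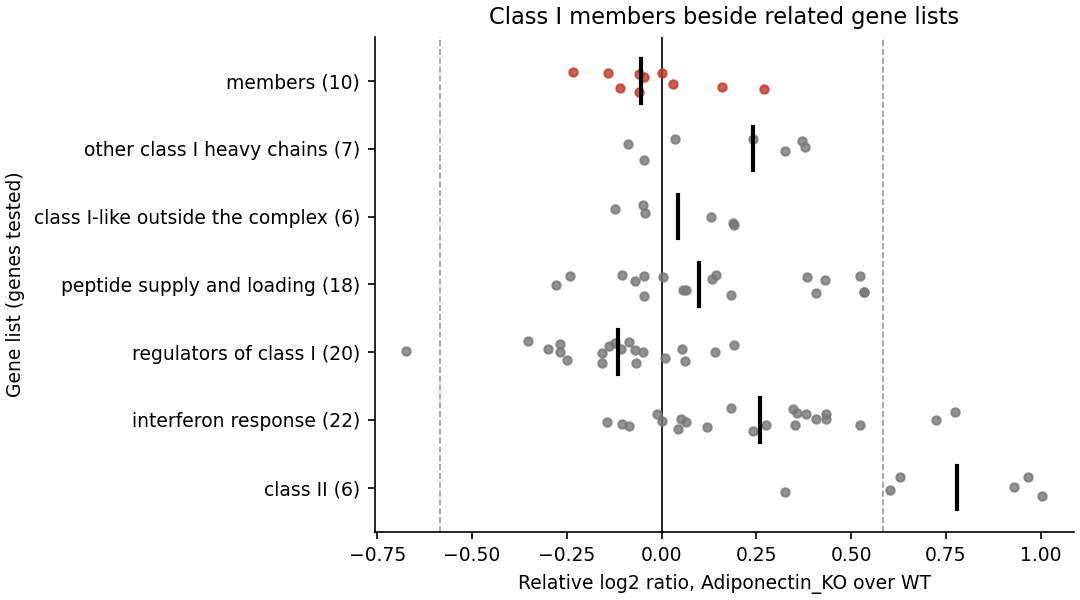
Relative log2 ratio of knockout over wild type for each gene tested in 7 lists, with a bar at each list's median and the number of genes in brackets. Vertical jitter has no meaning and dashed lines mark 1.5-fold. The class I members cluster around 0 with a median of -0.05, and 5 of the 6 class II genes lie past the right dashed line.

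In chromosomal order, 9 of the 10 genes lie in the complex on chromosome 17, and B2m lies on chromosome 2. Between Tapbp and H2-M3, 82 tested genes could be placed by RefSeq order, with a median relative ratio of -0.01 and 41 of them above the all-gene median. Tap1 and Tap2 alternate with the immunoproteasome genes within the class II cluster, between H2-DMb1 and H2-Ab1. Tap1 stood at -0.14 next to Psmb9 at 0.52, although both are known to start from one shared promoter region. Tap2 stood at 0.27 between Psmb8 at 0.41 and H2-Ab1 at 0.97. From H2-D1 through the Q and T regions the members lay between -0.11 for H2-Q10 and 0.16 for H2-Q6.

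**Figure D5:**
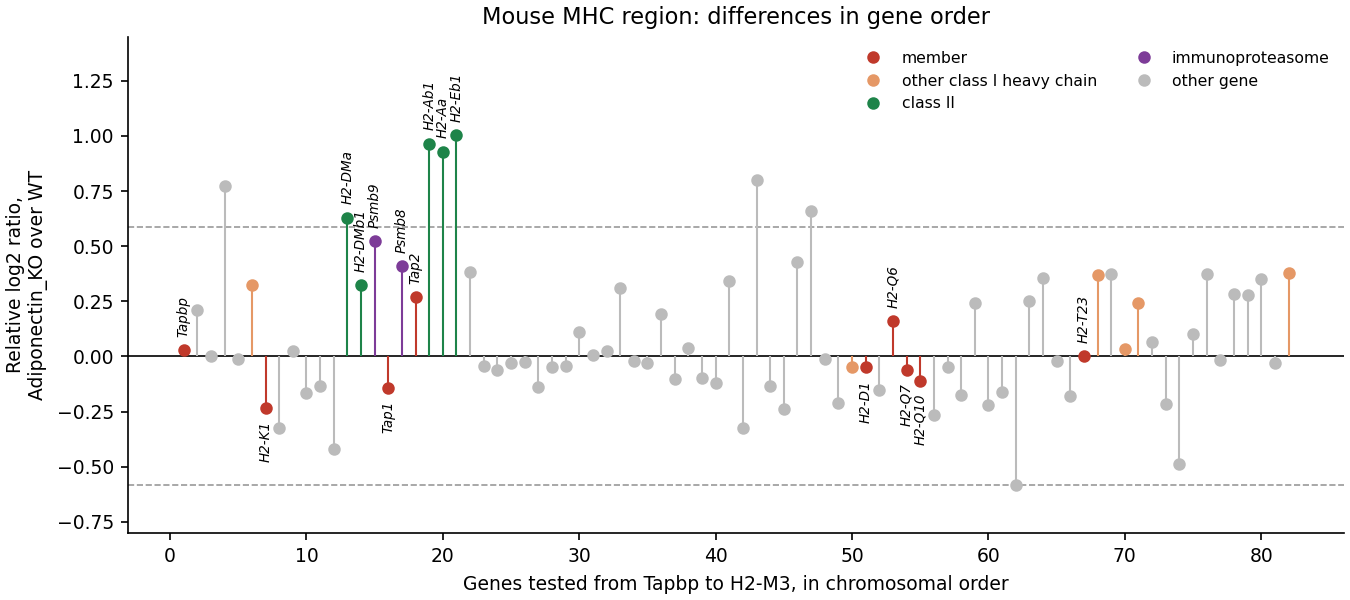
Relative log2 ratio of knockout over wild type for 82 tested genes from Tapbp to H2-M3, evenly spaced in chromosomal order and coloured by kind, with dashed lines at 1.5-fold. The class II genes have high values, and Tap1 and Tap2 lie among them. The class I members shown lie between -0.23 and 0.27.

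Liver holds cells other than hepatocytes that express class I, and in bulk RNA fewer cells of a type cannot be told apart from less RNA per cell. Kupffer cell and macrophage markers lay above the all-gene median in 12 of 14 tested, summed to 333 FPKM in the knockout library and 281 FPKM in the wild-type library, with a median of 0.29. As deposited, 9 of these 14 were higher and 5 lower. Their median was 0.13 after length correction. Those at least 1.5-fold higher, named after their values were seen, were the lysozyme gene Lyz2, with 116 FPKM in the knockout library and 72.5 FPKM in the wild-type library (0.82), and the scavenger receptor gene Marco, with 3.72 FPKM in the knockout library and 1.26 FPKM in the wild-type library (1.21). Without Lyz2, a comparison chosen after seeing the data, the markers summed to 217 FPKM in the knockout library and 208 FPKM in the wild-type library. Sinusoidal endothelium lay above it in 5 of 8, summing to 73.0 FPKM in the knockout library and 69.8 FPKM in the wild-type library, hepatocyte markers in 5 of 8, stellate cell markers in 3 of 5, cholangiocyte markers in 3 of 3, neutrophil markers in 1 of 2 and lymphocyte markers in 2 of 3. As deposited, 3 endothelial, 2 hepatocyte, 3 stellate cell, 2 cholangiocyte, 1 neutrophil and 1 lymphocyte marker were higher. A further 3 lymphocyte markers stayed under 1 FPKM in both libraries, and the remaining 11 of 17 and all 6 dendritic cell markers were not analysed here. Of the adipocyte markers 1 was tested, Cfd, which had 2.01 FPKM in the knockout library and 13.3 FPKM in the wild-type library. The part of these cells in the class I and class II values was not tested.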

How the data were processed

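Messenger RNA of liver in 2 libraries was compared, 1 per genotype. The deposited values are FPKM, 1 per gene symbol, and the submitters' processing notes name TopHat and Cuffdiff with mm9 and NCBIM37. Neither versions, roles, annotation nor filters are stated there. The tables hold 13352 rows and 13326 symbols. Where a symbol had 2 rows, the one of higher mean was used. Depth is unknown: low values were searched for steps of whole reads, and no log2 ratio, taken to 3 decimals, recurred in more than 5 of the 1298 genes above 0 and below 1 FPKM in both libraries.

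Ratios used a pseudocount of 1 FPKM, a minimum of 1 FPKM in at least 1 library and centring on the all-gene median. Genes at least 1.5-fold apart were counted in place of a test. Length correction used lowess (fraction 0.3, statsmodels 0.14.6) on the longest GENCODE M21 transcript, known for 96.6% of genes tested. Promoters are RefSeq's, aligned locally in pairs with Biopython, with identity counted over aligned bases without gaps. Named were all members, per class I, class II, peptide supply and regulator list the 4 genes farthest from 0 and those of at least 50 FPKM, and 4 interferon response genes. Other names were chosen after values were seen. Members and lists were chosen with earlier results of these data known. Alternatives were other pseudocounts, minimums and scalings, summed rows and length correction. A gene of the regulator and interferon lists is not reported here and was left out of their counts.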

Additional observations from a re-analysis of the deposited data

How the results depend on the processing

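The counts of 0 members at least 1.5-fold higher and 0 at least 1.5-fold lower held under all 9 alternative settings. With 6.73% and 2.61% of all genes tested past these limits in the main setting, counts of 0 among 10 genes lie near those shares. H2-K1 came closest to a limit, at -0.545 with equal summed FPKM, where 1.5-fold is 0.585 in log2. The median of the 10 members, -0.05 in the centred values, was -0.20 as deposited, -0.36 with equal summed FPKM and -0.20 with equal upper quartiles. The number of members above 0, which was 4, was 2 as deposited, 2 with equal upper quartiles, 2 with a minimum of 5 FPKM and 0 with equal summed FPKM. Pseudocounts of 0.1 and 0.5 FPKM, no minimum and summed rows moved no member by over 0.1, and length correction moved B2m alone. Summing H2-Q6, H2-Q7 and H2-Q8, chosen after seeing the data, gave 0.02. As deposited, 387 genes were at least 1.5-fold higher and 739 lower in the knockout library, against 806 and 313 after centring. No paired analysis was possible because each genotype had 1 library. Unknown depth limits the precision of Tap1, Tap2 and Tapbp most, as the lowest members.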

Other observations

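Class I-like proteins that are encoded outside the complex, and that mostly also pair with beta-2-microglobulin, ranged widely in level. Of 6 tested, 3 lay above the all-gene median and 3 below, with a median of 0.04 and none past 1.5-fold, and as deposited 2 were higher and 4 lower. Azgp1, a secreted zinc-binding glycoprotein with a class I fold that does not need the light chain, had 918 FPKM in the knockout library and 932 FPKM in the wild-type library. Cd1d1, which presents lipids to natural killer T cells, had 156 FPKM in the knockout library and 179 FPKM in the wild-type library, and its copy Cd1d2 40.2 FPKM in the knockout library and 48.8 FPKM in the wild-type library. Fcgrt, the heavy chain of the receptor that recycles albumin and IgG, had 58.0 FPKM in the knockout library and 66.8 FPKM in the wild-type library. Hfe, the haemochromatosis protein of iron sensing, had 32.7 FPKM in the knockout library and 31.8 FPKM in the wild-type library, and Mr1, which presents vitamin B metabolites, 1.80 FPKM in the knockout library and 1.73 FPKM in the wild-type library.

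Genes of the complex outside the class I, class II and immunoproteasome genes listed were mostly near the all-gene median as well. Of 60 such tested genes, a group that also holds a few class I-like gene models such as H2-Gs10, 25 lay above it. By at least 1.5-fold, 3 were higher and 0 lower, beside 6.73% and 2.61% of all genes tested. The 3, named after their values were seen, were the HDL apolipoprotein Apom (0.80), the ribosomal protein gene Rps18 (0.78) and the leukocyte gene Lst1 (0.66). Complement factor B (Cfb), also named after its values were seen, had 280.3 FPKM in the knockout library and 306 FPKM in the wild-type library (0.03).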
